A study of Citrus maxima and Citrus sinensis with 12 samples.

Results

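The miR167 family was described in small-RNA libraries from citrus root tips. It was taken as the 4 entries of the deposited count table that belong to family miR167, out of 172 entries in all, and these 4 entries hold 3 of the 126 distinct mature sequences. Seedlings of C. grandis, the pummelo (entered under the name Citrus maxima), and of C. sinensis, the sweet orange, were grown in sand from an age of 11 weeks and were irrigated for 15 weeks with a nutrient solution holding 400 µM H3BO3 (boric acid at a toxic level) or 10 µM H3BO3 (the control level). The 4 groups were C. grandis at 400 µM, C. grandis at 10 µM, C. sinensis at 400 µM and C. sinensis at 10 µM, with 3 libraries each. By the labels, a library pooled RNA of 5 replicates, and nothing says whether the libraries of a group came from separate plants, so the SDs and p-values measure the spread between libraries, which may be technical. The study asked how long-term boron excess alters root miRNAs in a pair of citrus species, of which C. sinensis is known as the more boron tolerant.

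miR167 is an ancient plant miRNA. In Arabidopsis it guides cleavage of the messenger RNAs of ARF6 and ARF8, transcription factors that turn the hormone auxin into changes of gene expression, and of IAR3, an enzyme that releases auxin from its storage forms. Through these targets it takes part in adventitious and lateral root formation there. miR160, miR390 and miR393 act on other parts of the same pathway. miR160 targets a different set of ARF genes, which act as repressors. miR390 starts the production of the small RNAs that silence ARF3 and its relatives, and miR393 targets the auxin receptors.

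The mature sequences are shown because the mature forms of the family differ in their last bases alone. In the first set the seed, bases 2 to 8 counted from the 5′ end, is in capitals. All 3 forms are 22 nt long, a length that 19 of the 126 sequences have, and all carry the same seed.
miR167a/b: uGAAGCUGccagcaugaucuga
scaffold_3_17453: uGAAGCUGccagcaugaucuau
miR167h: uGAAGCUGccagcaugaucuua

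None of the 123 other mature sequences has this seed, and the nearest of them lies 6 or more edits away from any miR167 form. The first 20 bases are identical in the 3 forms, and in the second set the capitals mark the last 2 bases, where they differ.
miR167a/b: ugaagcugccagcaugaucuGA
scaffold_3_17453: ugaagcugccagcaugaucuAU
miR167h: ugaagcugccagcaugaucuUA
Counted from the 5′ end and with miR167a/b given first, the differences are G21A and A22U against scaffold_3_17453 and G21U against miR167h. With scaffold_3_17453 first, miR167h differs from it by A21U and U22A.

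The entries ccl-miR167a and ccl-miR167b had the same mature sequence, the same window and identical counts in all 12 libraries, so they were treated as 1 form and are called miR167a/b. Their window of 250 nt on the minus strand runs from 29592086 to 29592335, with no scaffold named for it in the authors' table. The scaffold_3_17453 window lies on scaffold 3, minus strand, 44075255 to 44075504. The authors matched this form to Arabidopsis miR167a-5p in one table but call it miR167b-3p in another, and it is named here by its identifier. The miR167h form, matched to apple miR167h, has its window on scaffold 9, plus strand, 4164057 to 4164306. The genome build of these coordinates is not stated by the labels or the tables, and whether the windows fall in annotated genes was not analysed here.

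For the last 2 forms the authors' table also gives the star strand, the partner of the mature miRNA in the duplex cut from the hairpin. Both strands together show where the variable bases sit.
star of scaffold_3_17453: ggucaugcucugacagccucacu
star of miR167h: agaucaugcggcaguuucacc

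In a predicted duplex (RNAduplex) the miR167h form paired with its star at 19 positions, with an energy of −30.20 kcal/mol. Its mature strand was unpaired at position 11 inside the duplex and at positions 21 and 22 at the 3′ end. The scaffold_3_17453 duplex was less tightly paired, with 17 pairs and −20.70 kcal/mol, and its mature strand was unpaired at positions 4, 10, 20, 21 and 22. In both duplexes the star strand also ended in 2 unpaired bases. The bases at which the forms differ therefore lay outside the paired part of both predicted duplexes.

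Library totals summed over all entries were 479090 to 1062488 counts, the highest in C. grandis at 400 µM replicate 1. With each sequence counted once, that library held 519245 counts, fewer than the 560800 of C. sinensis at 400 µM replicate 3. Over all sequences, log2 CPM of replicate libraries correlated with r between 0.955 and 0.993, and every one of the 12 replicate pairs differed by more than counting error. Between them, the 3 forms had 233 to 25035 counts per library. A table of miRNA counts holds no cell-type markers, so the labelled tissue could not be checked, and in root tips measured as a bulk fewer cells of a type and less RNA per cell cannot be told apart.

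miR167a/b was among the most abundant miRNAs of the root tip. In CPM, its count relative to the scaled library size, it stood at 28053, 21474 and 17161 CPM in C. grandis at 400 µM, against 13430, 16767 and 13039 CPM in C. grandis at 10 µM. In C. sinensis it stood at 11982, 15161 and 14420 CPM at 400 µM, against 13882, 13173 and 10129 CPM at 10 µM. In CPM every library of C. grandis at 400 µM lay above all 9 others, while the other 3 groups overlapped each other. How many of all entries had this arrangement was not counted. Without overlap, 8.24% of all entries were higher in C. grandis at 400 µM than at 10 µM. Against C. sinensis at 400 µM this held for 28.8%. As a plain share of the counts, miR167a/b did not keep the separation. It held 3.32% in C. grandis at 400 µM replicate 3 and 3.92% in C. grandis at 10 µM replicate 2.

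scaffold_3_17453 was less abundant and had the same arrangement. It had 1776, 1444 and 1272 CPM in C. grandis at 400 µM, against 835, 1086 and 993 CPM in C. grandis at 10 µM. The C. sinensis libraries held 741, 972 and 913 CPM at 400 µM, against 814, 885 and 627 CPM at 10 µM. Again the lowest value of C. grandis at 400 µM was above the highest of all other libraries in CPM.

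miR167h was the least abundant form in every library. Its level was 901, 842 and 930 CPM in C. grandis at 400 µM, against 467, 623 and 622 CPM in C. grandis at 10 µM. In C. sinensis its level was 550, 554 and 598 CPM at 400 µM, against 497, 595 and 451 CPM at 10 µM. In C. grandis it averaged 891 ± 44.6 CPM at 400 µM, against 570 ± 89.9 CPM at 10 µM (SD, n = 3 each).

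**Figure D1:**
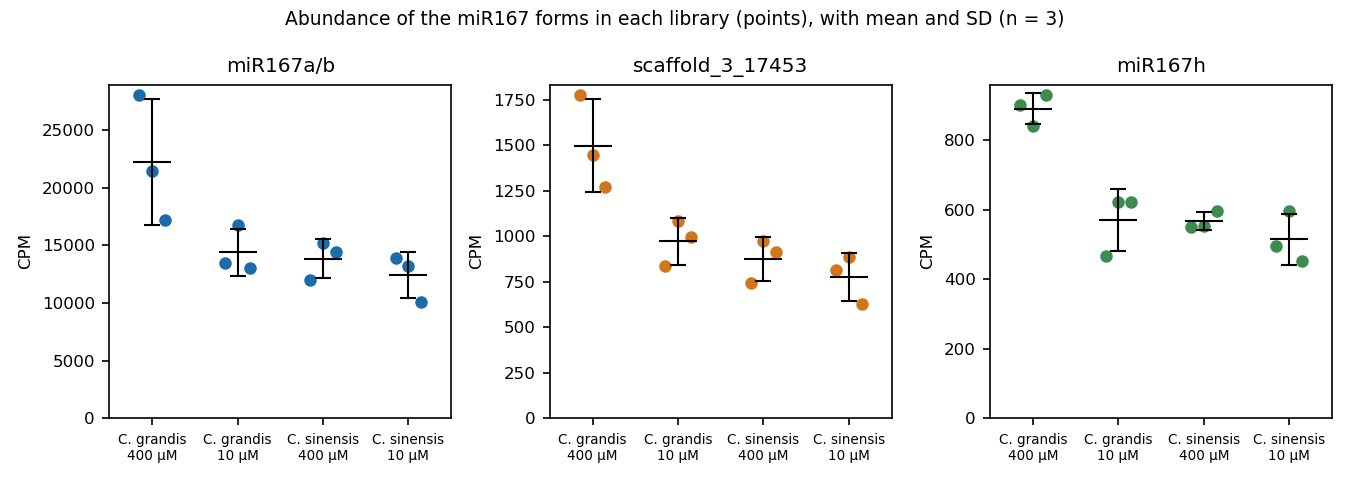
Abundance of each miR167 form in CPM (vertical axes, from 0) in the 4 groups (horizontal axes). Points are the 12 libraries and black marks are the mean and SD of 3 libraries. On this scale all 3 C. grandis libraries at 400 µM lie above the other 9 for every form, between 17161 and 28053 CPM for miR167a/b.

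The order of the group means was the same for all 3 forms: C. grandis at 400 µM, then C. grandis at 10 µM, C. sinensis at 400 µM and C. sinensis at 10 µM. For miR167a/b these means were 22229 ± 5485, 14412 ± 2049, 13854 ± 1663 and 12395 ± 1994 CPM (SD, n = 3 each). For scaffold_3_17453 they were 1497 ± 256, 971 ± 127, 875 ± 120 and 775 ± 134 CPM (SD, n = 3 each). Below the first group, neighbours in this order overlapped for every form and were not separated beyond their spread.

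The position of each form among the 126 sequences of a library does not depend on how libraries are scaled. It does depend on the levels of the other sequences. For example, scaffold_1_1505, at a mean of 61310 CPM over 12 libraries, had a log2 fold change of −4.635 for boron in C. grandis. Whether such changes moved the miR167 positions was not tested. miR167a/b was 6th in all 3 C. grandis libraries at 400 µM and 7th in all 3 at 10 µM, and in C. sinensis it was 7th in all 3 libraries at 400 µM and 7th to 9th at 10 µM. scaffold_3_17453 ranked 31 to 36 in C. grandis at 400 µM and 37 to 41 in C. grandis at 10 µM. In C. sinensis it ranked 40 in all 3 libraries at 400 µM and 37 to 48 at 10 µM. miR167h ranked 40 to 43 in C. grandis at 400 µM and 48 to 56 in C. grandis at 10 µM, and in C. sinensis it ranked 49 to 51 at 400 µM and 50 to 59 at 10 µM.

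Taken as a share of all counts, with each sequence counted once, the family overlapped between boron levels. It made up 3.75 to 5.28% of the counts in C. grandis at 400 µM and 2.79 to 4.32% at 10 µM. In C. sinensis the share was 2.36 to 3.0% at 400 µM and 1.88 to 2.61% at 10 µM.

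By mean abundance over all libraries, miR167a/b lay 7th among the tested sequences. The next above it was scaffold_1_1509 (matched to miR9563a-3p) at 18268 CPM and the next below scaffold_6_34275 (matched to miR5296) at 14026 CPM, with miR167a/b itself at 15723 CPM. scaffold_3_17453, 40th at 1030 CPM, lay between scaffold_3_9355 (matched to miR1028a-3p) at 1068 CPM and scaffold_6_34757 (matched to miR3627-5p) at 999 CPM. miR167h, 49th at 636 CPM, lay between scaffold_3_9268 at 672 CPM and scaffold_3_13668 (matched to miR8553b) at 615 CPM.

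The first comparison asked what boron excess did to miR167 in C. grandis. Under the trimmed-mean scaling of edgeR all 3 forms were about 1.5 times as abundant at 400 µM as at 10 µM. None of them passed the test over all miRNAs. miR167a/b had a log2 fold change of 0.63 (SE 0.21, edgeR adjusted p = 0.131), scaffold_3_17453 one of 0.62 (SE 0.20, adjusted p = 0.131) and miR167h one of 0.64 (SE 0.18, adjusted p = 0.0788). Their 95% intervals were 0.17 to 1.08, 0.19 to 1.06 and 0.26 to 1.03. edgeR called 1.18% of the 170 entries in this comparison, each of them lower at 400 µM. At an unadjusted p under 0.05 all 3 forms passed, as did 18.2% of the entries, and DESeq2 also called 0 of the 3 after adjustment.

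All 3 forms were higher at 400 µM with no overlap between the groups, as were 8.24% of all entries. Without the trimmed-mean scaling, as plain shares of the counts with each sequence counted once, miR167a/b overlapped between the levels (3.32 to 4.82% at 400 µM, 2.48 to 3.92% at 10 µM), and so did scaffold_3_17453 (0.246 to 0.305% at 400 µM, 0.180 to 0.254% at 10 µM). miR167h did not overlap on this scale either, with 0.153 to 0.180% at 400 µM and 0.1005 to 0.146% at 10 µM. The 14 entries without overlap in CPM include the 4 miR167 entries. By size of log2 fold change miR167h, miR167a/b and scaffold_3_17453 were 15th, 17th and 18th of 124 tested sequences. The median log2 fold change of all entries was 0.07, and relative to it the 3 forms stood 0.56, 0.55 and 0.57 higher (miR167a/b, scaffold_3_17453 and miR167h). Over all other settings the log2 fold change of miR167a/b stayed positive but ranged from 0.25 to 0.78, with an adjusted p of 0.0954 to 0.561. It was 0.42 without replicate 1 of C. grandis at 400 µM, the library with the highest total over entries and the highest for this form. It was 0.29 without replicate 2 of that group and 0.25 without replicate 3 of C. grandis at 10 µM. The median of all entries moved as well, and relative to it miR167a/b stood at 0.36, 0.64 and 0.40 in the same order. In the settings that kept every library its log2 fold change lay between 0.36 (total-count scaling) and 0.63. Relative to the median it lay between 0.51 and 0.57 there.

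The authors' deposited table of boron-responsive miRNAs lists the 4 entries among its 37 C. grandis rows and none of them among its 11 C. sinensis rows. In the authors' deposited table miR167a and miR167b have a log2 fold change of 0.61 and a false discovery rate of 0.560. The scaffold_3_17453 entry has 0.61 with a false discovery rate of 0.762, and miR167h has 0.63 with a false discovery rate of 0.876 in the authors' deposited table. All 4 are marked as up there, and none of the table's C. grandis rows has a false discovery rate under 0.05.

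In C. sinensis the groups overlapped for every form, where 3.53% of all entries were higher at 400 µM without overlap, and edgeR called 0% of the entries. At an unadjusted p under 0.05 there were 0 of the 3 forms and 1.76% of the entries, and DESeq2 called 0 forms. The log2 fold change of 400 over 10 µM was 0.16 for miR167a/b, with a 95% interval of −0.30 to 0.62 and an edgeR adjusted p of 0.893. It was 0.17 (−0.26 to 0.61) for scaffold_3_17453 and 0.14 (−0.25 to 0.53) for miR167h, with the same adjusted p. The sign for miR167a/b was not stable, since its log2 fold change was −0.0017 without replicate 2 of C. sinensis at 400 µM.

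Whether boron acted differently in C. grandis than in C. sinensis was tested as the difference of both effects. It was 0.46 (−0.18 to 1.11) for miR167a/b, 0.45 (−0.17 to 1.07) for scaffold_3_17453 and 0.50 (−0.04 to 1.05) for miR167h on the log2 scale (edgeR adjusted p = 0.841 for each, 0% of entries called and 5.29% at an unadjusted p under 0.05, with 0 forms among them). A difference of the boron effect between the species was thus not shown, and its intervals also hold differences as large as the effect in C. grandis. Averaged over both species, the boron effect was 0.39, 0.40 and 0.39 for miR167a/b, scaffold_3_17453 and miR167h (edgeR adjusted p = 0.193, 0.188 and 0.146), in a comparison in which 0.588% of entries were called. At an unadjusted p under 0.05 all 3 forms passed, as did 14.1% of the entries.

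**Figure D2:**
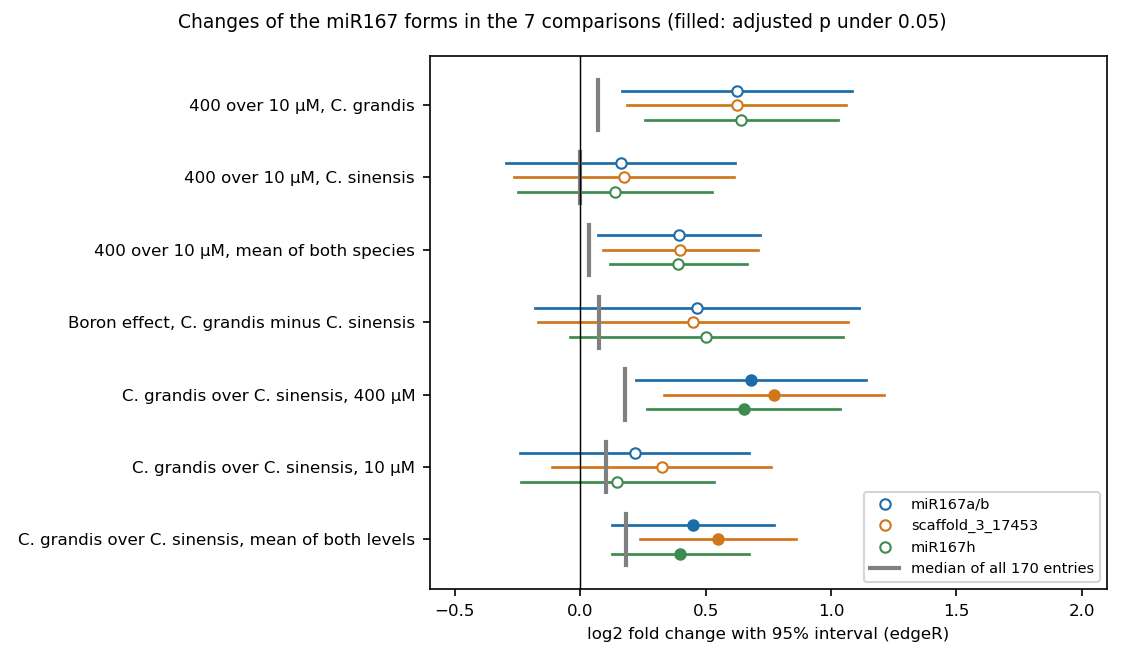
Log2 fold changes (horizontal axis) of the 3 miR167 forms in the 7 comparisons (rows), with 95% intervals from edgeR, filled points for an adjusted p under 0.05 and grey bars for the median of all 170 entries. The boron effect in C. grandis lies between 0.62 and 0.64 for the 3 forms with no filled point, and the species difference at 400 µM is filled for all 3.

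The species were then compared at each boron level. At 400 µM all 3 forms were higher in C. grandis than in C. sinensis under the trimmed-mean scaling of edgeR, by 1.60-fold for miR167a/b, 1.71-fold for scaffold_3_17453 and 1.57-fold for miR167h. The log2 fold changes were 0.68 (0.22 to 1.14, edgeR adjusted p = 0.0284), 0.77 (0.34 to 1.21, adjusted p = 0.0149) and 0.65 (0.27 to 1.04, adjusted p = 0.0196). In this comparison edgeR called 28.8% of all entries, and 20.6% were called higher in C. grandis. Shares of all entries count every entry, also where entries have the same mature sequence. With identical sequences merged, edgeR called 20 entries at 400 µM, beside 49 as reported.

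The groups did not overlap for any of the forms, which also held, in the same direction, for 28.8% of all entries. The median of all entries was shifted by 0.18 towards C. grandis, and relative to it the forms stood 0.50, 0.60 and 0.47 higher (miR167a/b, scaffold_3_17453 and miR167h).

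These calls depended on the scaling and on single libraries. With median-of-ratios scaling, with DESeq2 or with identical sequences merged (only the first entry of each kept), 1 of the 3 forms was called, scaffold_3_17453. With no filter, with a mean CPM filter or with only the 6 libraries at 400 µM, 0 were called. Total-count scaling called all 3. Over all settings the log2 fold change of miR167a/b stayed positive, between 0.31 and 0.84. Relative to the median of all entries it lay between 0.46 and 0.54 in the settings that kept every library, but it was 0.27 without replicate 1 of C. grandis at 400 µM and 0.65 without its replicate 3. The number of forms called fell to 0 without C. grandis at 400 µM replicate 2, C. grandis at 10 µM replicate 2 or 3, C. sinensis at 400 µM replicate 1, 2 or 3, or C. sinensis at 10 µM replicate 1, and it was 1 without C. grandis at 400 µM replicate 1 and 2 without its replicate 3. The 10 µM libraries are not part of this contrast. Without any 1 of those named, miR167a/b had the same log2 fold change as with no filter, 0.40. The median of all entries was then −0.068, and miR167a/b stood 0.47 above it.

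**Figure D3:**
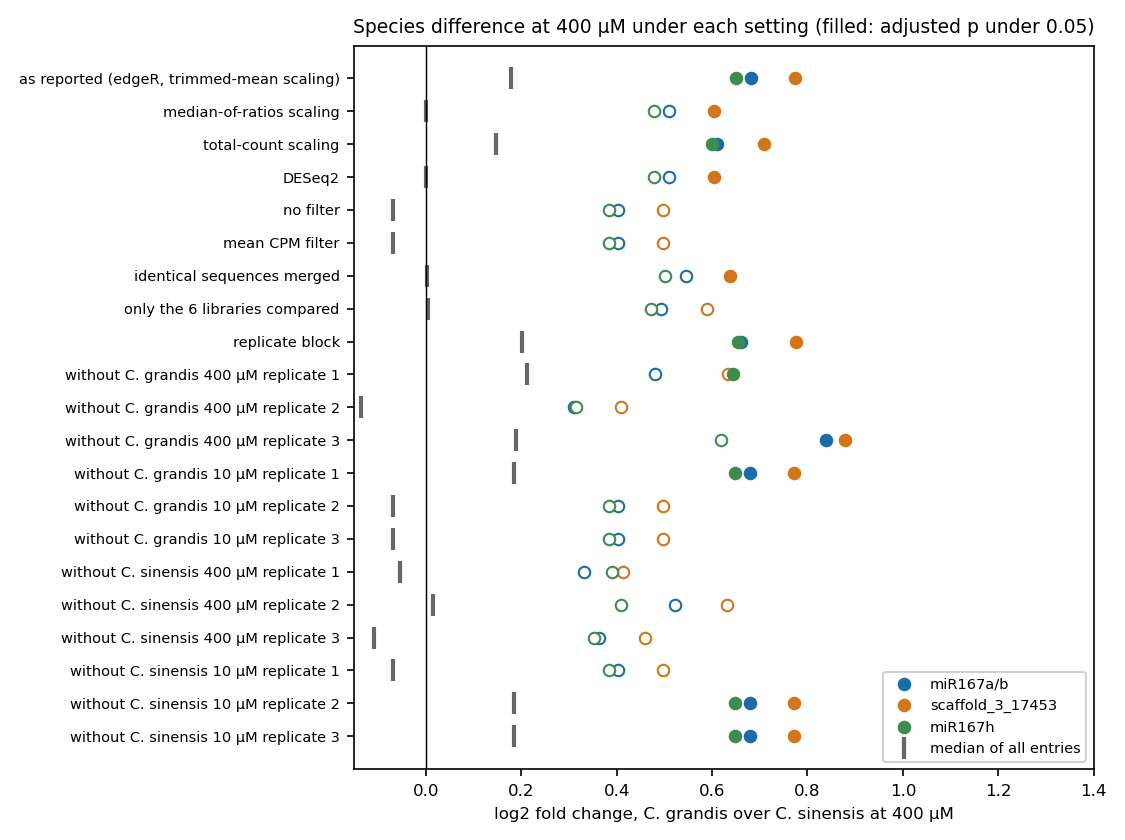
Log2 fold change of C. grandis over C. sinensis at 400 µM (horizontal axis) for the 3 miR167 forms under each setting (rows), filled where the adjusted p was under 0.05, with a bar at the median of all entries. miR167a/b ranges from 0.31 to 0.84, and the median of all entries differs between rows too.

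At 10 µM the species overlapped for every form, while 27.1% of all entries were higher in C. grandis without overlap. The log2 fold changes of C. grandis over C. sinensis were 0.22 (−0.24 to 0.67) for miR167a/b, 0.32 (−0.11 to 0.76) for scaffold_3_17453 and 0.15 (−0.24 to 0.53) for miR167h, with edgeR adjusted p = 0.453, 0.246 and 0.556. edgeR called 28.2% of all entries in this comparison, and 40% had an unadjusted p under 0.05, which none of the 3 forms had. The change of the species difference between the levels is the same quantity as the difference of the boron effects given above, which was not called.

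Averaged over both levels, the species difference was 0.45 (SE 0.15) for miR167a/b, 0.55 (SE 0.14) for scaffold_3_17453 and 0.40 (SE 0.13) for miR167h. edgeR gave adjusted p = 0.0244, 0.00769 and 0.02 under trimmed-mean scaling, in a comparison in which 54.7% of all entries were called and 32.9% were called higher in C. grandis. Relative to the median of all entries (0.18) the forms were 0.27, 0.37 and 0.22 higher. The 6 C. grandis and 6 C. sinensis libraries overlapped for each form, while 14.1% of all entries were higher in C. grandis without overlap, and the settings that removed the calls at 400 µM, apart from the fit to 6 libraries, left 0 or 1 form called here too. The number called also fell to 0 without the same libraries as at 400 µM, and to 1 without C. sinensis at 10 µM replicate 3.

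The mix of the 3 forms was nearly constant. miR167a/b made up 90.1 ± 1.35% of the family's counts in C. grandis at 400 µM, 90.3 ± 1.16% in C. grandis at 10 µM, 90.5 ± 0.294% in C. sinensis at 400 µM and 90.6 ± 0.752% in C. sinensis at 10 µM (SD, n = 3 each). scaffold_3_17453 held 6.14, 6.11, 5.71 and 5.66% on average in the same groups, and miR167h held 3.76, 3.59, 3.74 and 3.79%. The ratio of miR167a/b to scaffold_3_17453 lay between 13.1 and 17.1 in all 12 libraries, and its ratio to miR167h between 18.5 and 31.1.

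Both ends of the second range fell in C. grandis at 400 µM, where miR167h made up 2.93% (95% Wilson interval 2.74 to 3.14) of the family in replicate 1 and 4.80% (4.45 to 5.18) in replicate 3. These intervals cover counting error only, and libraries of the same group thus differed beyond it.

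Of 15 exact two-sided permutation tests of these shares, none passed after adjustment. The lowest p was 0.0606 (adjusted p = 0.909), for scaffold_3_17453 at 6.12% in C. grandis and 5.69% in C. sinensis over 6 libraries each, where the smallest possible p was 0.00216. With 3 against 3 libraries the smallest possible p was 0.1. Whether reads of forms that share their first 20 bases were assigned to the right one by the authors' counting was not tested.

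**Figure D4:**
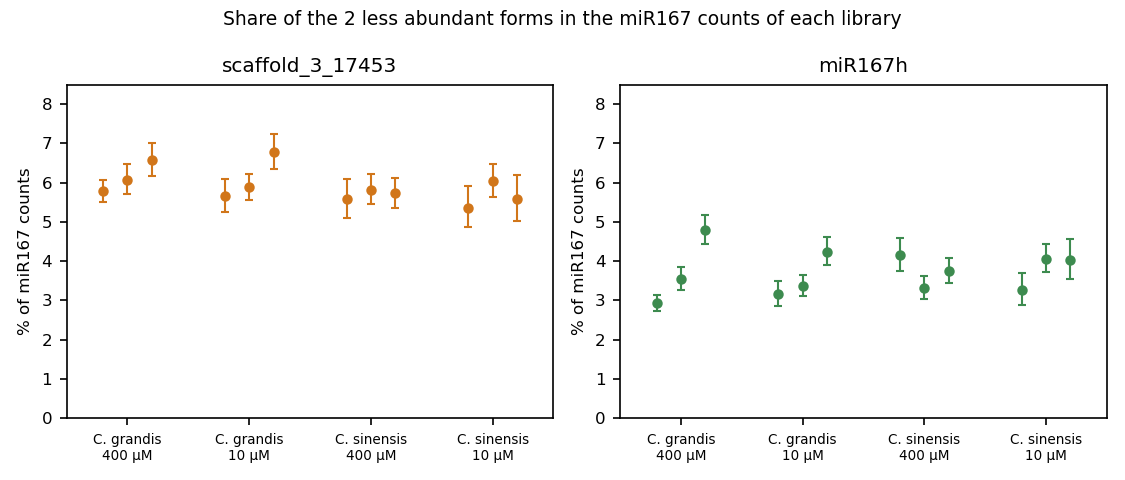
Share of the miR167 counts (vertical axes, percent) held by scaffold_3_17453 and miR167h in each of the 12 libraries, by group (horizontal axes), with 95% Wilson intervals. The miR167h share runs from 2.93 to 4.80% within C. grandis at 400 µM, which spans all other groups.

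The other auxin-related families on the list, miR160, miR390 and miR393, gave no call between boron levels in any comparison, but few entries of any family did. edgeR called 1.18% of all entries for boron in C. grandis and 0% in C. sinensis. It called 0.588% for the average over both species and 0% for the difference of effects. These families hold 5 entries with 4 sequences, of which 3 belong to miR160, 1 sequence entered at 2 loci to miR390, and none to miR393. The mature sequences of miR390 and of the miR160 form that differed between species are shown with their seeds in capitals, since they are the ones compared with miR167 below.
miR390 (scaffold_6_31928): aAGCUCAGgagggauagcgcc
miR160 (scaffold_2_8873): uGCCUGGCucccuguaugccg

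In C. grandis miR390 had 184, 199 and 194 CPM at 400 µM, against 264, 199.7 and 346 CPM at 10 µM. At this locus (scaffold_6_31928) all 3 values at 400 µM lay below those at 10 µM, by a narrow margin, with a log2 fold change of −0.49 (edgeR adjusted p = 0.336). At its second locus (scaffold_8_40978) the groups overlapped, with a log2 fold change of −0.48 and the same adjusted p. The share of all entries that were lower at 400 µM without overlap is not given here. The miR160 forms had log2 fold changes of 0.18, 0.21 and −0.08, the first of which changed sign in 10 of 20 other settings. Taken once per sequence, the median over these 4 sequences was 0.050, beside 0.054 over all 124 sequences and 0.63 over the 3 of miR167.

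**Figure D5:**
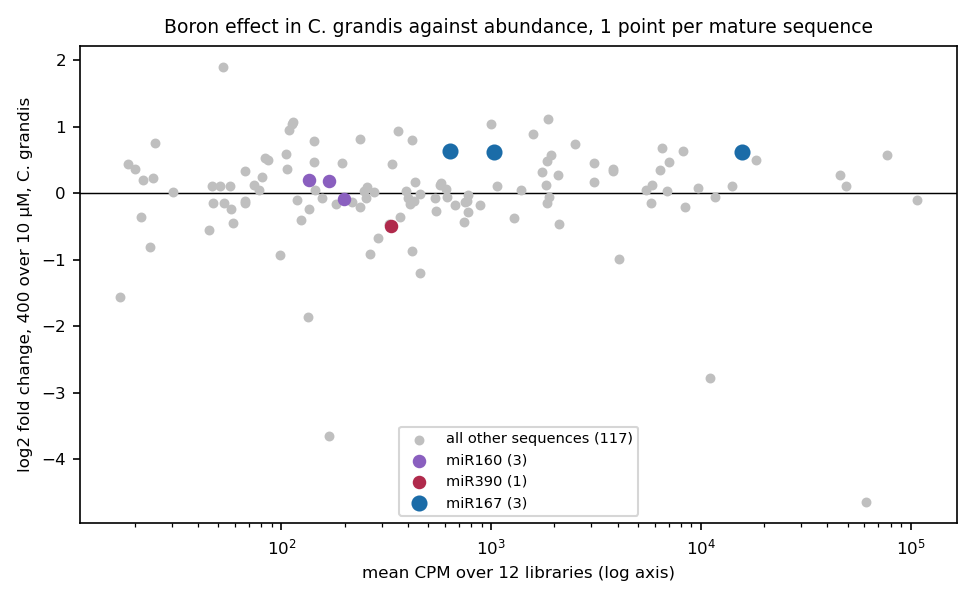
Log2 fold change of 400 over 10 µM in C. grandis (vertical axis) against mean CPM over 12 libraries (horizontal log axis), 1 point per tested sequence. The 3 miR167 sequences sit at 0.62 to 0.64 over a wide range of abundance, while miR160 lies near 0 and miR390 at −0.49.

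miR390 was lower in C. grandis than in C. sinensis. At 400 µM it had 184, 199 and 194 CPM in C. grandis, against 474, 393.1 and 379 CPM in C. sinensis. Its log2 fold change of −1.11 (edgeR adjusted p = 0.00681, 28.8% of all entries called) passed in all 20 other settings. The log2 fold change at 10 µM was −0.76 (edgeR adjusted p = 0.0401, 28.2% of all entries called), and it missed the threshold in 7 of 20 other settings. The species overlapped at 10 µM, with up to 346 CPM in C. grandis and down to 316 CPM in C. sinensis. Averaged over both levels miR390 was lower in C. grandis, with a log2 fold change of −0.93 (edgeR adjusted p = 0.00123, 54.7% of all entries called). The average passed in all 19 other settings, though the libraries of the species overlapped over both levels.

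The miR160 form scaffold_2_8873, at 206 ± 39.5 CPM in C. grandis and 153 ± 5.18 CPM in C. sinensis at 400 µM (SD, n = 3 each), was called higher in C. grandis only in the average over levels. Its log2 fold change was 0.42 (edgeR adjusted p = 0.0358, 32.9% of all entries called higher in C. grandis), and it missed the threshold in 15 of 19 other settings.

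The ratio of miR167a/b to miR390 within a library needs no scaling between libraries. It was 153, 108 and 88.3 in C. grandis at 400 µM, against 50.8, 83.95 and 37.7 in C. grandis at 10 µM. In C. sinensis it was 25.3, 38.6 and 38.0 at 400 µM, against 24.0, 27.7 and 32.0 at 10 µM. The highest values were thus those of C. grandis at 400 µM, which overlapped with no other group, and this pair was chosen after its values were seen, so no test was made.

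Among the other 121 tested sequences, the 5 with the highest Pearson correlation of log2 CPM with miR167a/b over the 12 libraries were scaffold_2_8756 (matched to miR472, Pearson's r 0.82, Spearman's rho 0.59), scaffold_6_34631 (matched to miR157a-5p, 0.79 and 0.71), scaffold_1_1918 (matched to miR156, 0.77 and 0.76), scaffold_8_40213 (matched to miR472a, 0.76 and 0.68) and scaffold_3_17579 (matched to miR164a, 0.75 and 0.74). In other plants miR472 targets disease-resistance genes, miR156 and miR157 target SPL transcription factors, and miR164 targets NAC transcription factors. The other miR167 forms had r of 0.97 (scaffold_3_17453) and 0.83 (miR167h), and the median over the 121 others was 0.16. These values describe 12 libraries that share groups, depth and scaling, and by Spearman's rho the 5 ranked 15, 6, 2, 9 and 4, so that 2 of them were among the closest 5 by both measures.

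When group means were removed, scaffold_3_17453 still followed miR167a/b with r of 0.90, whereas miR167h did so with r of 0.30 only. The 5 others with the highest Pearson's r were then scaffold_2_8756 (0.83), scaffold_9_43811 (0.77), scaffold_1_1509 (0.66), scaffold_5_25021 (0.62) and scaffold_2_8924 (0.60). By Spearman's rho they ranked 1, 2, 3, 5 and 11. Of these, scaffold_2_8756 also had the highest Pearson's r over all libraries. Low counts limit the values of scaffold_9_43811, scaffold_5_25021 and scaffold_2_8924, which averaged 21.9, 50.7 and 53.3 CPM over 12 libraries.

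The authors' deposited table of predicted targets names 1 gene for miR167a, Ciclev10008567m.g.v1.0 (a Core-2/I-branching enzyme), which is also given for miR167b. For miR167h it names Ciclev10025048m.g.v1.0 (annotated as a Sin-like protein conserved region), and it has no row for scaffold_3_17453. None of the 39 rows of that table is annotated as an auxin response factor or with another auxin term. Messenger RNA was not measured in these libraries.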

How the data were processed

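Library preparation used the Illumina TruSeq kit for small RNA, per the labels' protocols. The submitters' processing notes name DESeq with no version, and how reads were trimmed, aligned and called, and on which build, is not stated by the labels. The authors' expression table holds raw counts for each miRNA entry, and 73 of its 172 entries share a mature sequence with another entry. How reads of a shared sequence were assigned to its loci is not stated. The miR390 entries scaffold_6_31928 and scaffold_8_40978 had close but unequal values, 199.7 and 197.7 CPM in C. grandis at 10 µM replicate 2. The deposited tables also give the authors' log2 fold changes with p-values and the score of the hairpin prediction, per the file headers, and these were used only as the authors' values.

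Counts of all entries were fitted with edgeR 4.0.16 (R 4.3.3) with trimmed-mean scaling, filterByExpr at a count minimum of 10 (170 entries kept, all miR167 entries among them) and a quasi-likelihood model with 1 mean per group over 12 libraries. The 7 contrasts were tested two-sided with Benjamini-Hochberg adjustment over 170 entries and a threshold of 0.05. Standard errors are the log2 fold change over the root of F. The biological coefficient of variation was 28.1%. CPM are relative to the trimmed-mean library sizes (for correlations, a prior count of 2 was added). Shares within the family were compared by exact permutation. Duplexes were predicted with RNAduplex (ViennaRNA 2.7.2). The tests were tested on simulated data.

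Named miRNAs were the miR167 forms, the sequences of families 160, 390 and 393, the 5 closest in pattern and the neighbours in level. The members and lists were chosen with earlier results of these data known. The alternatives tried were 2 other scalings (total counts, median of ratios), DESeq2 1.42.0, a mean CPM filter at 10 or no filter, merging identical sequences, fitting only the 6 libraries compared, a replicate block, and leaving out each library. Merging kept the first entry of each mature sequence and left out the others, without adding their counts.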

Additional observations from a re-analysis of the deposited data

How the results depend on the processing

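The boron comparisons called 0 of the 3 miR167 forms in every setting. At 400 µM, the species difference of miR167a/b missed the threshold with median-of-ratios scaling or DESeq2 (0.51 each on the log2 scale), no filter or a mean CPM filter (0.40 each), merged sequences (0.54) and only the 6 libraries (0.49). Averaged over levels it did so with median-of-ratios scaling or DESeq2 (0.30 each), no filter or a mean CPM filter (0.27 each) and merged sequences (0.29). The number of forms called was 1 with median-of-ratios scaling, DESeq2 and merging in both comparisons, and 0 with no filter, the mean CPM filter and, at 400 µM, only 6 libraries. With each library left out in turn, 0 to 3 forms were called in both, and the log2 fold change of miR167a/b ran from 0.31 to 0.84 at 400 µM, 0.18 to 0.53 averaged, −0.046 to 0.27 at 10 µM and −0.0017 to 0.22 for boron in C. sinensis. For miR167h at 10 µM it was −0.038 with merged sequences and −0.074 to 0.27 with libraries left out. miR160 (scaffold_2_8873) for boron in C. grandis was −0.064 with total counts, −0.054 with either other filter and −0.054 to 0.18 with libraries left out. The cause was not tested.

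Shares, as differences in percentage points with 1 library left out, ran in C. grandis between boron levels from −0.86 to 0.53 (miR167a/b), −0.19 to 0.37 (scaffold_3_17453) and −0.36 to 0.58 (miR167h), and in C. sinensis from −0.33 to 0.41, −0.10 to 0.24 and −0.31 to 0.16. Between species they ran at 400 µM from −1.04 to 0.28 (miR167a/b) and −0.50 to 0.43 (miR167h), at 10 µM from −0.68 to 0.41 and −0.52 to 0.020, and over both levels from −0.31 to 0.063 (miR167h). As a log2 ratio the miR167h difference at 400 µM was −0.017.

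Equal replicate numbers had correlated deviations of −0.12, −0.23 and 0.20 in C. grandis and 0.40, 0.24 and 0.22 in C. sinensis, where each library matched its own number best. The labels do not pair them. With the replicate block, miR167a/b was 0.60 (edgeR adjusted p = 0.192) for boron in C. grandis and 0.66 (adjusted p = 0.0287) between species at 400 µM, and no miR167 call changed. Calls over all entries varied: 0 to 8 for boron in C. grandis beside 2 as reported, 0 to 6 for averaged boron beside 1, 0 to 2 for the difference of effects beside 0, 23 to 58 beside 48 at 10 µM, 19 to 62 beside 49 at 400 µM and 46 to 97 beside 93 averaged.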
